A study of Xenopus tropicalis with 12 samples.

Results

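Thyroid hormone receptors act on chromatin through partner proteins, and 6 genes for such partners were followed through liver metamorphosis in wild-type *Xenopus tropicalis*: the corepressor genes ncor1 and hdac3 and the coactivator genes med1, ncoa3, ep300 and carm1. They were chosen by name, with earlier results of these data known. They are 6 of 26529 genes in the deposited count table, and all 6 were among the 15102 genes tested. Liver RNA was sequenced from 12 libraries in 4 groups of 3. The T3 group held stage 54 tadpoles kept for 18 h in 10 nM triiodothyronine (T3), the form of thyroid hormone that binds the receptors, and the others were untreated tadpoles at stage 54 (st54), stage 61 (st61) and stage 66 (st66). All were wild type and born of the same parents, per the labels, and the libraries of a group are described as coming from different tadpoles. Stage 54 precedes the rise of the tadpole's own hormone, stage 61 is the climax of metamorphosis and stage 66 its end.

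Without hormone, a thyroid hormone receptor paired with a retinoid X receptor sits on its target genes and holds scaffold proteins such as NCoR1, which carry the histone deacetylase HDAC3 and keep the gene low. Binding of T3 changes the receptor's shape, so that the corepressors leave and coactivators dock: p160 proteins such as NCoA3 (also called SRC3), the acetyltransferase p300 (from ep300) and the arginine methyltransferase CARM1 that p160 proteins bring in, and Mediator, which contacts RNA polymerase II and meets the receptor through its MED1 subunit. In frog tadpoles this exchange has been studied as the switch between repression in the larva and activation at metamorphosis. The values here are the amounts of the partners' transcripts.

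Levels are given in CPM, the share of a library's summed counts that fell on a gene, scaled to a common total. Depth lay between 7928459 and 39536147 summed counts, and the smallest count of any of the 6 genes in a library was 70. Folds and adjusted p-values are those of edgeR's quasi-likelihood test with TMM scaling and Benjamini-Hochberg adjustment over the 15102 genes, as throughout, and a gene was called at an adjusted p under 0.05. TMM factors were 1.19 to 1.25 in the T3 libraries and 0.747 and 0.785 in st66 replicates 2 and 3, against 0.923 to 1.14 in the other libraries. CPM therefore reads higher against the fitted folds in T3, and lower in those 2 st66 libraries. On column sums the median gene was 0.25, 0.35 and 0.39 higher on the log2 scale in T3 than in st54, st61 and st66, against -0.05, 0 and -0.03 after TMM scaling.

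Some libraries stood apart within their group. In st66, replicate 1 had a ribosomal protein share of 7.39%, against 15.3% and 15.6% in replicates 2 and 3, and the dividing-cell marker mki67 stood at 140 CPM in it, against 12.7 and 11.4 CPM. In st54, replicate 3 had a ribosomal share of 12%, against 9.04% and 8.19% in replicates 1 and 2. The T3 libraries lay closer together than those of any other group, with a biological coefficient of variation of 2.6%, against 33.7% in st54, 23.9% in st61 and 40.2% in st66. Whether the T3 libraries are separate biological samples or repeats from 1 pool was not tested. If repeats, the SE and p-values of the T3 comparisons do not measure the spread between animals. All comparisons share an estimate of spread, so the T3 libraries also enter the SE and p-values of comparisons between untreated stages. With the T3 libraries summed into 1, which also leaves that group 1 library, genes called between T3 and st54 numbered 62 in place of 2570. Hepatocyte markers were strong everywhere: the 9 listed, led by albumin, summed to between 37595 and 67090 CPM per library. The hormone response was in place: thrb, the hormone-inducible receptor gene, averaged 29.6 ± 0.692 CPM in T3 and 1.01 ± 0.543 CPM in st54 (mean ± SD, n = 3 each, as throughout).

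The 6 coregulator transcripts moved little beside that response. Of 36 tests (6 genes in 6 comparisons), 3 passed: carm1 was higher in st66 than in st54 and lower in T3 than in st66, and hdac3 was higher in T3 than in st61. That is 8.33% of the coregulator tests, against 20.3% of all 90612 tests of genes in these comparisons, which share libraries. Counted by gene, 4 of the 6 were called in no comparison, beside 46.6% of all genes tested. The comparison of T3 with st54 called none of the 6 genes (none at an unadjusted p under 0.05, none by DESeq2), where 17.0% of all genes were called (9.47% higher, 7.55% lower). The same held for st61 against st54, with 18.9% of all genes called (10.0% higher, 8.85% lower). In bulk liver RNA, fewer cells of a type and less RNA per cell cannot be told apart.

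**Figure D1:**
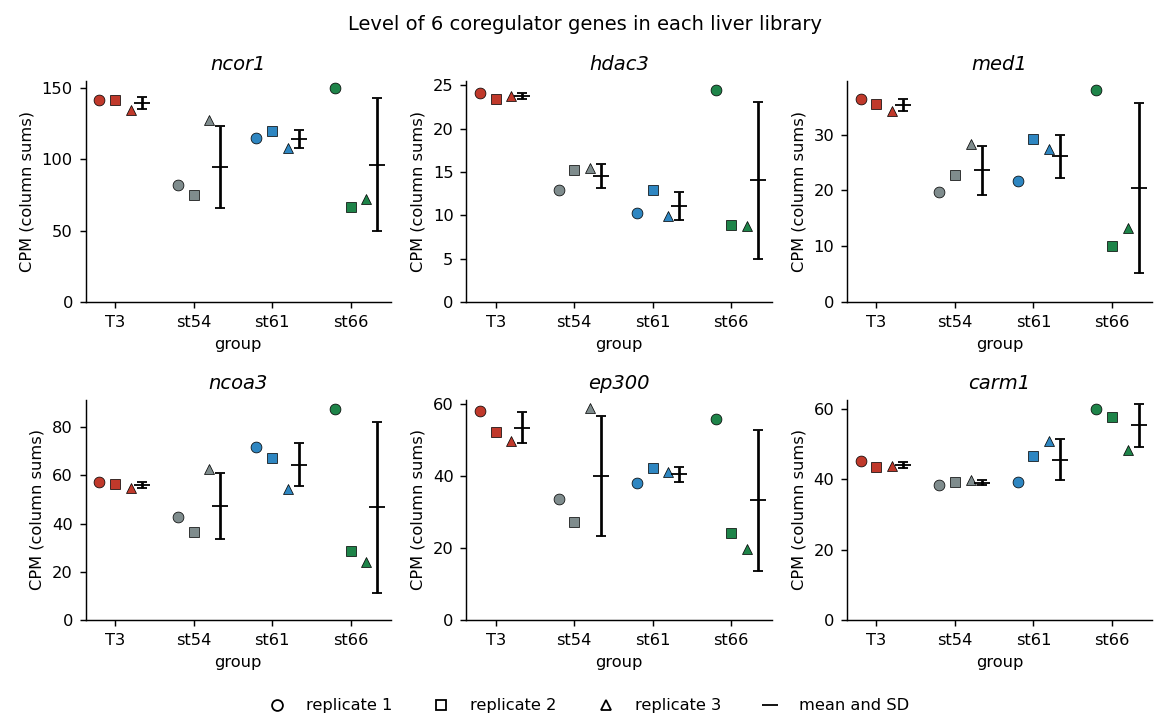
CPM of the 6 genes in each library (y axes start at 0), by group on the x axis, with circles, squares and triangles for replicates 1, 2 and 3 and bars for mean and SD. In st66 replicate 1 lies above replicates 2 and 3 for every gene, at 60.0 against 57.5 and 48.4 CPM for carm1 and at 38 against 9.96 and 13.3 CPM for med1.

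ncor1 encodes the scaffold of the corepressor complex and lies on chromosome 2 at 31053959 to 31155085 on the plus strand, in the UCB_Xtro_10.0 assembly, whose start and end match the table for all 6 genes. Its counts cover 47 exonic blocks of 9228 bases in all. ncor1 stood at 142, 142 and 135 CPM in T3 replicates 1 to 3, against 81.9, 74.7 and 128 CPM in the st54 replicates. The T3 libraries were above all st54 libraries on this scale, but after TMM scaling st54 replicate 3 (131) lay above all T3 libraries (114 to 117). The fitted difference was 0.25 ± 0.22 on the log2 scale (± SE here and below), with a 95% interval of -0.23 to 0.74 (adjusted p = 0.444).

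Along the untreated stages ncor1 averaged 94.9 ± 28.9 CPM in st54, 114 ± 6.30 CPM in st61 and 96.3 ± 46.3 CPM in st66. The st61 libraries (115, 120 and 108 CPM) fell within the range of st54. In st66 the libraries split, with replicate 1 at 150 CPM and replicates 2 and 3 at 66.8 and 72.4 CPM. st61 exceeded st54 by 0.31 ± 0.22 (adjusted p = 0.379). After TMM scaling the order from low to high was st54, st66, T3, st61, and no pair of groups differed past the threshold. With st54 replicate 3 left out, ncor1 was called higher both in st61 (0.60, adjusted p = 0.0365) and in T3 (0.54, adjusted p = 0.0465) than in the remaining st54 pair.

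hdac3 encodes the deacetylase of that complex (chromosome 3, 27751018 to 27768520, minus strand; 15 exonic blocks, 3079 bases). It stood at 24.1, 23.4 and 23.7 CPM in T3, against 10.3, 12.9 and 9.92 CPM in st61. The groups did not overlap, and hdac3 was called 1.69-fold higher in T3 (log2 difference 0.76 ± 0.23, adjusted p = 0.0253), in a comparison that called 33.2% of all genes and 16.6% as higher. The call held in 16 of 22 alternative analyses. It was lost without st61 replicate 1 (adjusted p = 0.0739) or 3 (0.079), without any one of the T3 libraries (0.0657 to 0.0732) and with the T3 libraries summed into 1 (0.246), while the difference stayed between 0.69 and 1.10. Fibroblast markers also set these groups apart (5 of 7 lower in T3, summed level 265 to 290 CPM in T3 and 1297 to 2386 CPM in st61). Erythroid markers summed to 2005 to 2107 CPM in T3 and 6988 to 8407 CPM in st61. Of these 5, the 2 called lower were the globin genes hba1 (-3.86) and hbg1 (-4.02). The others, alas2 (-0.76), gata1 (-0.19) and slc4a1 (-0.04), were not called. Bile duct markers were lower in 3 of 4 (249 to 267 CPM in T3 and 720 to 1184 CPM in st61), and of 9 hepatocyte markers 6 were lower and 1 higher (37595 to 40707 CPM in T3 and 59266 to 67090 CPM in st61). Dividing-cell markers, of which none was called by edgeR, summed to 258 to 271 CPM in T3 and 147 to 169 CPM in st61. Of 5 exocrine pancreas markers 2 were called higher and 2 lower in T3. Among 6 endothelial and 3 macrophage markers, 1 of each list was called lower. The fibroblast marker pdgfrb (0.32) and the bile duct marker epcam (0.45) were higher in T3 without a call. No listed marker was at 0 in all 3 libraries of a group, and the part of these cells in the hdac3 difference was not tested.

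Against st54, where hdac3 was at 12.9, 15.2 and 15.5 CPM, every T3 library was again higher, but the fitted difference of 0.41 ± 0.23 did not pass (adjusted p = 0.225). It passed when only the T3 and st54 libraries were fitted (adjusted p = 0.0327) and without st66 replicate 1 (0.0269), which enters through the shared estimate of spread. The untreated stages averaged 14.5 ± 1.44 CPM in st54, 11.1 ± 1.62 CPM in st61 and 14.0 ± 9.10 CPM in st66. In st66 the values were 24.5 CPM in replicate 1 and 8.83 and 8.70 CPM in replicates 2 and 3, so replicate 1 matched the T3 livers and the others lay under all other libraries in CPM. T3 against st66 gave 0.37 (adjusted p = 0.243), 0.78 without replicate 1 (adjusted p = 0.00184) and -0.14 with it alone (adjusted p = 0.647). From low to high the order was st61, st54, st66, T3 after TMM scaling, and only its ends differed past the threshold.

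med1 encodes the Mediator subunit that contacts nuclear receptors (chromosome 10, 10158349 to 10203037, plus strand; 18 exonic blocks, 4925 bases). It shares 22 exonic bases with cdk12 on the other strand, and how reads were counted by strand is not given in the sources used here. med1 stood at 36.4, 35.5 and 34.2 CPM in T3, against 19.7, 22.7 and 28.4 CPM in st54. These ranges do not overlap in CPM, but after TMM scaling the T3 values (28.9 to 29.3) met that of st54 replicate 3 (29.0), and the difference was 0.28 ± 0.28 (95% interval -0.33 to 0.90, adjusted p = 0.507).

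Across the stages med1 averaged 23.6 ± 4.40 CPM in st54, 26.1 ± 3.95 CPM in st61 and 20.4 ± 15.3 CPM in st66. The st66 libraries were at 38, 9.96 and 13.3 CPM, 3.82-fold between the highest and the lowest, the widest such ratio in CPM of the 6 genes in st66. After TMM scaling the split was smaller, at 33.4, 13.3 and 16.9. With replicate 1 left out, med1 in st66 was called lower than in st61 (log2 difference -0.85, adjusted p = 0.00755) and st54 (-0.66, adjusted p = 0.025). With replicate 1 as the lone st66 library the same differences were 0.30 and 0.48, with adjusted p of 0.397 and 0.135. With all 3 libraries they were -0.34 and -0.15 (adjusted p = 0.485 and 0.786). T3 exceeded st66 by 0.43 (adjusted p = 0.273), and the difference was 0.95 without st66 replicate 1 (adjusted p = 0.0023) and -0.19 with it alone (adjusted p = 0.597). No pair of neighbours in its order (st66, st54, st61, T3) differed past the threshold.

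ncoa3 encodes the p160 coactivator SRC3 (chromosome 10, 37127817 to 37234856, minus strand; 26 exonic blocks, 9143 bases, 39 of them shared with zmynd8 on the other strand). It stood at 57.1, 56.2 and 54.6 CPM in T3, against 42.6, 36.5 and 62.7 CPM in st54, an overlap on either scale (log2 difference -0.06 ± 0.31, 95% interval -0.73 to 0.62, adjusted p = 0.916). The sign was the opposite on column sums (0.24), where the median gene lay 0.25 higher. In st61 it was at 71.5, 67.2 and 54.2 CPM, the highest group mean (64.3 ± 9.01 CPM), against 47.3 ± 13.7 CPM in st54, but the 1.40-fold difference did not pass (0.49 ± 0.31, adjusted p = 0.321). st66 split again, into 87.4 CPM in replicate 1 and 28.5 and 24.2 CPM in replicates 2 and 3. Without replicate 1 ncoa3 was lower in st66 than in st61 (-0.97, adjusted p = 0.011), and with it alone the difference was 0.19 (adjusted p = 0.705).

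T3 livers lay below st61 livers for ncoa3 after TMM scaling without overlap. In CPM the ranges overlapped, at 54.6 to 57.1 in T3 and 54.2 to 71.5 in st61. How many of all genes part these groups in this way was not counted. The fitted difference of -0.55 ± 0.31 had an adjusted p of 0.194, in a comparison that called 33.2% of all genes. It was called when only those 6 libraries were fitted (-0.56, adjusted p = 0.00455) or without st66 replicate 1 (adjusted p = 0.0435). The order was T3, st54, st66, st61 after TMM scaling, and no neighbours differed past the threshold.

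ep300 encodes the acetyltransferase p300 (chromosome 4, 115906745 to 115941540, minus strand; 31 exonic blocks, 10143 bases). It stood at 58.1, 52.1 and 49.8 CPM in T3, against 33.7, 27.3 and 58.9 CPM in st54, so that st54 replicate 3 was the highest library of all. The difference of 0.12 ± 0.28 did not pass (95% interval -0.51 to 0.74, adjusted p = 0.811). st61 was tight at 38.1, 42.1 and 41.1 CPM, while st66 ran from 55.7 CPM in replicate 1 to 24.3 and 19.7 CPM in replicates 2 and 3. With all libraries its change was at most 0.29 on the log2 scale in any comparison. Without st66 replicate 1 it reached 0.61 in T3 against st66 (adjusted p = 0.0973), and on column sums 0.67 (adjusted p = 0.184). ep300 was called in none of them under any of the 22 alternatives.

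carm1 encodes the arginine methyltransferase (chromosome 3, 138857298 to 138874548, plus strand; 16 exonic blocks, 3366 bases). It stood at 60.0, 57.5 and 48.4 CPM in st66, against 38.3, 39.1 and 39.7 CPM in st54. All st66 libraries were above all st54 libraries on either scale. In CPM the split of st66 seen for the other genes was small here. After TMM scaling the split was reversed, with replicate 1 at 52.8, under replicate 3 at 61.7 and replicate 2, the highest. carm1 was called 1.61-fold higher in st66 (0.69 ± 0.16, adjusted p = 0.0157). In that comparison 13.7% of all genes were called, 8.23% as higher and 5.48% as lower. The call held in 15 of 22 alternatives, with the difference between 0.42 and 0.81 in all of them. It missed the threshold on column sums (adjusted p = 0.0721), with only those 6 libraries fitted (0.204) and with the T3 libraries summed (0.0841). It also missed when st54 replicate 1 (0.0614) or 2 (0.0508) or st66 replicate 2 (0.0617) was left out, and when replicate 1 was the lone st66 library (0.0921). Without st66 replicate 1 the call held (0.81), and with replicate 1 as the lone st66 library the difference was 0.42. Sums of erythroid markers (2 of 5 called higher, 9758 to 12389 CPM in st66 and 1439 to 3069 CPM in st54), fibroblast markers (5 of 7 called higher, 752 to 1508 CPM in st66 and 224 to 514 CPM in st54) and bile duct markers (2 of 4 called higher, 581 to 960 CPM in st66 and 163 to 348 CPM in st54) moved the same way. The 2 erythroid genes called were the globin genes hba1 (4.46) and hbg1 (4.91), while alas2 (0.37), gata1 (0.21) and slc4a1 (-0.21) were not. The fibroblast marker pdgfra (-0.25) and the bile duct marker epcam (-0.81) went the other way without a call. Of 9 hepatocyte markers 2 were higher and 1 lower in st66 (50675 to 59091 CPM in st66 and 46279 to 47669 CPM in st54). Among 5 exocrine pancreas markers 2 were called higher and 2 lower, and among 3 macrophage markers 1 was called higher. The part of these cells in the carm1 difference was not tested.

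With T3, carm1 was at 45.1, 43.4 and 43.7 CPM, and it was called lower than in st66 (log2 difference -0.81 ± 0.16, adjusted p = 0.00446, with 28.7% of all genes called and 17.1% as lower). The call was lost on column sums (-0.33, adjusted p = 0.142) and with the T3 libraries summed (-0.74, adjusted p = 0.213), and held in 20 of 22 alternatives. In the same comparison 4 of 5 erythroid, 5 of 7 fibroblast and 3 of 4 bile duct markers were called lower in T3. Of 9 hepatocyte markers 5 were called lower and 1, ttr, higher. Erythroid sums were 2005 to 2107 CPM in T3 and 9758 to 12389 CPM in st66. The markers slc4a1 (0.06), pdgfrb (0.36) and epcam (0.36) of these lists went the other way without a call. Of 5 exocrine pancreas markers 3 were called higher and 2 lower in T3. Of 6 endothelial markers 1, stab2 (2.07), was called higher, and 1 of 3 macrophage and 1 of 4 dividing-cell markers were called lower. What part these cells have in this carm1 difference was not tested. T3 livers were above st54 livers in CPM and below them after TMM scaling (35.7 to 36.8 in T3, 38.4 to 40.6 in st54), and the fitted difference was -0.13 ± 0.16 (adjusted p = 0.61; 0.18 on column sums). In st61 carm1 was at 39.2, 46.5 and 50.7 CPM. From low to high the order was T3, st54, st61, st66 after TMM scaling. Of its neighbours none differed past the threshold, and st66 exceeded st61 by 0.42 ± 0.16 (adjusted p = 0.117). That comparison called none of the 6 genes, with carm1 alone at an unadjusted p under 0.05 and none by DESeq2, where 10.0% of all genes were called (5.75% higher, 4.28% lower). Without st66 replicate 1 the carm1 difference was called (0.54, adjusted p = 0.0141).

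**Figure D2:**
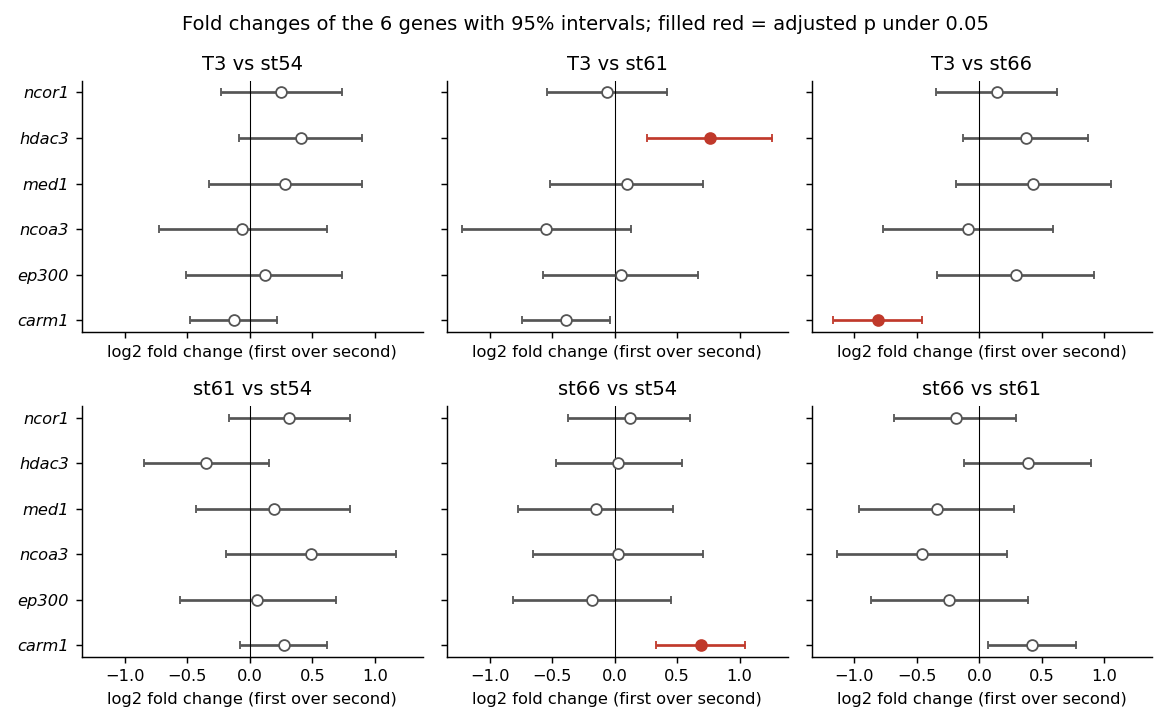
Log2 fold change (x axis, first group over second) of the 6 genes in the 6 comparisons, with 95% intervals from the edgeR fit to all 12 libraries. Filled red points passed an adjusted p of 0.05: hdac3 in T3 vs st61 (0.76), carm1 in T3 vs st66 (-0.81) and carm1 in st66 vs st54 (0.69).

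Over the 6 comparisons, the largest absolute log2 change was 0.29 for ep300, 0.31 for ncor1, 0.43 for med1, 0.55 for ncoa3, 0.76 for hdac3 and 0.81 for carm1. The median of the 6 was 0.49, beside 0.88 over all 15102 genes tested and 0.78 over the 9066 genes with a mean of at least 10 CPM. Without st66 replicate 1 the median of the 6 was 0.85, beside 1.02 over all genes tested then, with ncoa3 at 0.97, med1 at 0.95, carm1 at 0.93, hdac3 at 0.78, ep300 at 0.61 and ncor1 at 0.40. On column sums it was 0.62, beside 0.94. With all libraries, ep300 moved less than all but 6.16% of genes and ncor1 less than all but 7.28%, while carm1 moved more than 45.7% of genes. Hormone response genes lay far out on the same scale, with thrb at 4.47 in T3 against st54. dio3, the deiodinase gene whose product inactivates the hormone, was at -5.95 in st61 against st54. In T3 against st54, dio3 was not called (-1.17, adjusted p = 0.163). Of the coregulator differences not called, most intervals still allowed a change of 0.5 on the log2 scale or more in at least 1 direction.

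**Figure D3:**
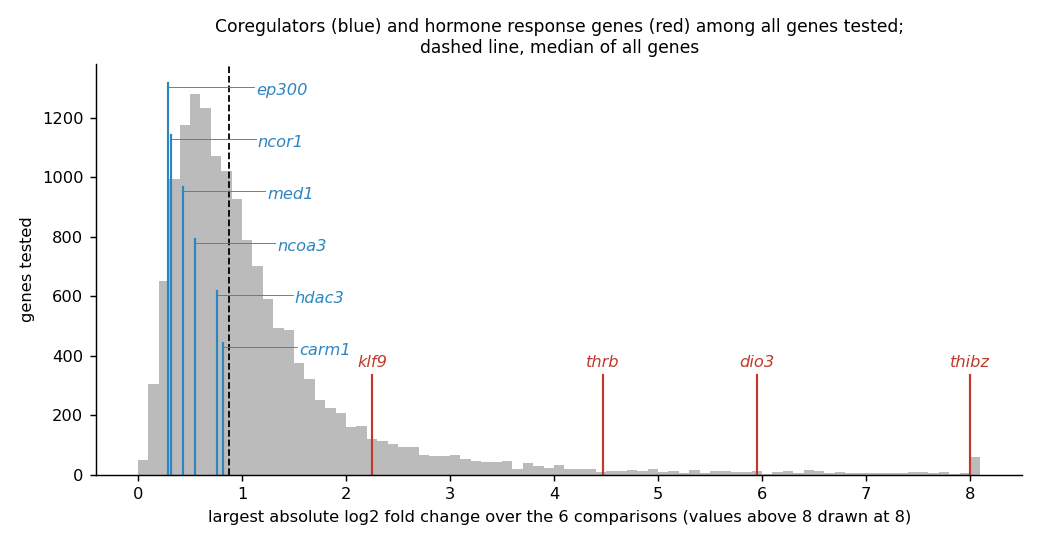
Histogram of the largest absolute log2 fold change of each gene over the 6 comparisons (x axis) against the number of genes tested (y axis), with coregulators in blue and hormone response genes in red. The blue lines lie between 0.29 and 0.81, left of the dashed median of 0.88, and thibz, at 8.51, is drawn at the right end.

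Per kilobase of exon, carm1 and ncor1 were the most abundant of the 6. Over all 12 libraries carm1 averaged 13.7 ± 2.13 CPM per kb and ncor1 12.1 ± 3.27 CPM per kb. ncoa3 (5.86 ± 1.99), med1 (5.36 ± 1.85), hdac3 (5.14 ± 2.07) and ep300 (4.12 ± 1.33 CPM per kb) lay lower. Spreads of the last 4 overlap widely, so no order is read among them.

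Ratios to ncor1 within a library do not depend on scaling between libraries, but hdac3, carm1 and med1 are shorter than ncor1, so a library's trend with gene length enters their ratios; ncoa3 and ep300 are close to it in length. ncoa3 stood at 0.406, 0.398 and 0.409 of ncor1 per kb in T3, against 0.525, 0.493 and 0.495 in st54 and 0.626, 0.564 and 0.508 in st61. Every T3 library thus had less ncoa3 for its ncor1 than every st54 and st61 library, although neither gene was called on its own. The st66 libraries spanned both ranges, at 0.589, 0.430 and 0.338. These ratios and those below are given as values, with no test. How many other gene pairs part the groups in this way was not counted. T3 libraries lay close together over all genes (biological coefficient of variation 2.6%), which by itself makes overlap with other groups rarer.

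For hdac3 the ratio to ncor1 was lowest at climax. In st61 the libraries stood at 0.269, 0.322 and 0.276, against 0.471, 0.612 and 0.362 in st54, and T3 libraries were at 0.509, 0.493 and 0.526. No st61 library reached the range of the other groups, whose lowest value was 0.360 in st66. The ratio of ep300 to ncor1 varied least, between 0.248 and 0.418 over all libraries, and that of med1 lay between 0.279 and 0.570, with all groups overlapping st54. The ratio of carm1 to ncor1 was 0.835 to 0.888 in T3, 0.849 to 1.44 in st54, 0.933 to 1.29 in st61 and 1.10 to 2.36 in st66, highest in st66 replicates 2 and 3.

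**Figure D4:**
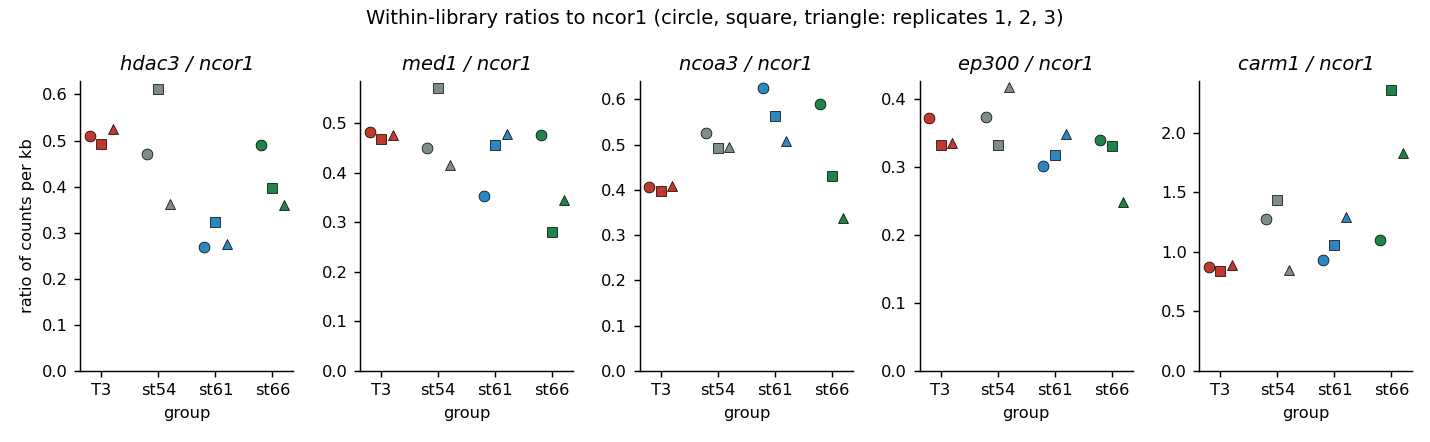
Ratio of counts per kb of 5 genes to ncor1 within each library (y axes start at 0), by group on the x axis, with circle, square and triangle for replicates 1, 2 and 3. For ncoa3 the 3 T3 points (0.398 to 0.409) lie under all st54 and st61 points, and for hdac3 the 3 st61 points (0.269 to 0.322) lie under all others.

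Among themselves, ncor1, ncoa3, ep300 and med1 went up and down together from library to library, and carm1 did not. Pearson correlations were taken on log2 of TMM-scaled CPM over the 12 libraries, which share groups and differ in depth. For ncor1 the correlation was 0.86 with ep300, 0.81 with ncoa3, 0.71 with med1, 0.32 with hdac3 and -0.18 with carm1. Between ncoa3 and med1 it was 0.64, and hdac3 came near that with med1 (0.60) but not with ncoa3 (0.13). carm1 ran against med1 (-0.61) and hdac3 (-0.54). ncor1, ncoa3, ep300 and med1 were low in st66 replicates 2 and 3 and st54 replicates 1 and 2. They were higher in st66 replicate 1, st54 replicate 3 and, in CPM, the T3 libraries. The median of long transcripts was also low or high in these libraries. The 488 genes with a mean of at least 10 CPM and 8000 or more exonic bases had a median log2 deviation of -0.45 and -0.50 in st66 replicates 2 and 3, and of 0.24 in replicate 1. In st54 it was -0.16, -0.22 and 0.19 in replicates 1 to 3, in st61 0.19, 0.18 and 0.08, and in T3 0.11 to 0.16. The 5788 genes under 3500 bases, the length class of hdac3 and carm1, deviated by 0.16 and 0.15 in st66 replicates 2 and 3. hdac3 went against its class there, at 11.8 and 11.1 after TMM scaling, against 21.6 in replicate 1. med1, with 4925 bases, belongs to neither class. What part transcript length has in the shared pattern of these genes was not tested.

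**Figure D5:**
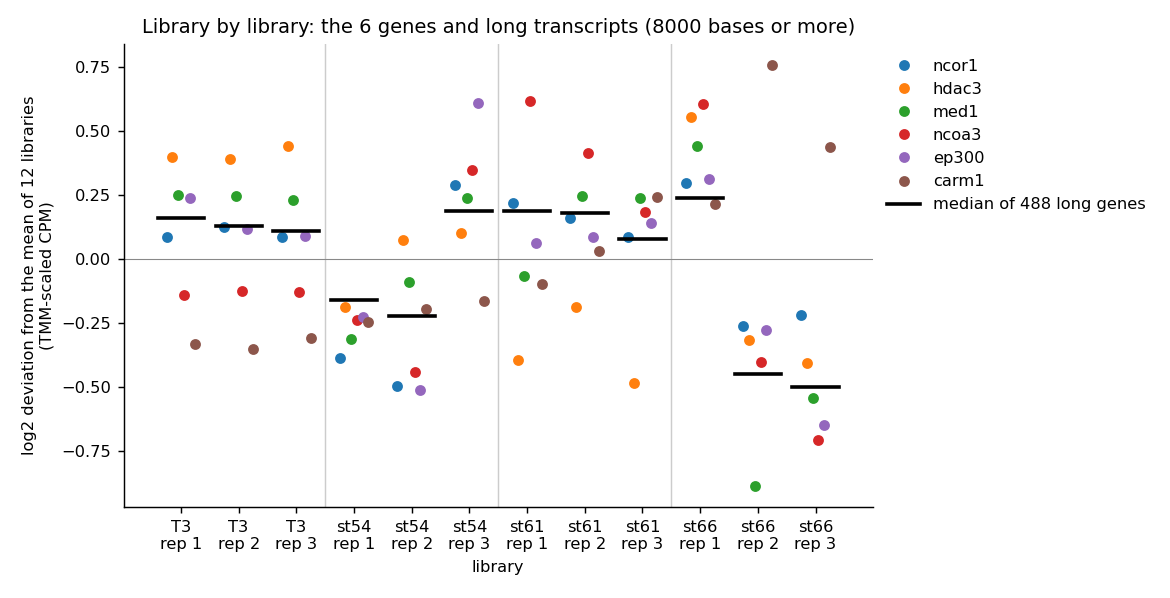
Log2 deviation of TMM-scaled CPM from the mean of the 12 libraries (y axis) for each of the 6 genes, by library on the x axis, with a black bar for the median of 488 long genes. In st66 replicates 2 and 3 the long genes lie at -0.45 and -0.50 and all of the 6 genes but carm1 lie under 0, while in st66 replicate 1 all 6 lie above it.

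Removing each library's trend with gene length, a correction chosen after these values were seen, left the 3 calls in place (hdac3 in T3 vs st61, 0.76, adjusted p = 0.0137; carm1 in st66 vs st54, 0.67, adjusted p = 0.0286; carm1 in T3 vs st66, -0.88, adjusted p = 0.00479). In st61 against st54 it gave 0.03 for ncor1 and 0.20 for ncoa3, in place of 0.31 and 0.49, and -0.22 for ep300, the longest of the 6, in place of 0.06. For ncoa3 in T3 against st61, where the uncorrected difference was -0.55, the corrected difference was -0.43 (adjusted p = 0.10).

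For each gene the most similar patterns among 8324 other named genes with a mean of at least 10 CPM were listed. Similarity was the Pearson correlation of log2 TMM-scaled CPM over the 12 libraries. For ncor1 these were phldb1 (0.969), arhgef17 (0.966) and eif4g3 (0.963), and for hdac3 they included naa25 (0.967) and ccdc9 (0.966). med1 was closest to virma (0.951), lrch3 (0.947) and map3k9 (0.944). For ncoa3 they were arhgap21 (0.982), madd (0.974) and dync1h1 (0.969), and for ep300 they included ptpn23 (0.965) and emsy (0.964). carm1, whose correlation with each of the other 5 was negative, was closest to khsrp (0.964), caprin1 and eif3h (0.962 each).

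Other genes of the same complexes were read from lists. Of the 33 calls named below for them and the receptor and response genes, 4 held in all 22 alternatives: thrb in 3 comparisons and arid1b in st66 against st61. With the T3 libraries summed, thrb alone of the genes named for T3 against st54 was still called. Of 12 further corepressor partners, 1 was called higher and 1 lower in st61 against st54, beside 18.9% of all genes. T3 livers had 1 lower against st54 (17.0% of all genes called), and 2 higher and 2 lower against st61 (33.2%). Against st66 they had 3 higher and 2 lower (28.7%). The st66 livers had 1 lower against st54 (13.7%) and 1 lower against st61 (10.0%). Of this list lcor, a ligand-dependent corepressor gene, fell in st61 (-0.84, adjusted p = 0.0122) and in st66 (-0.71, adjusted p = 0.0389) against st54. These lcor calls held in 18 and 8 of 22 alternatives. sap30, of the Sin3 deacetylase complex, fell with T3 (-0.71 against st54, adjusted p = 0.0114).

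Of 16 p160 and acetyltransferase partners, 1 rose and 2 fell in T3 against st54, and 1 rose and 2 fell in st61 against st54. These are 3 of 16 in both, beside 17.0% and 18.9% of all genes. The PGC1 coactivator genes, known for mitochondrial and fasting metabolism, were among those that fell: ppargc1a was at 12.1, 11.6 and 11.4 CPM in T3, against 80.2, 57.6 and 39.9 CPM in st54 (-2.64, adjusted p = 0.0113). Against st54, ppargc1a also fell in st66 (-2.29, adjusted p = 0.0196), and ppargc1b fell in T3 (-1.28, adjusted p = 0.03), in st61 (-1.24, adjusted p = 0.0292) and in st66 (-1.52, adjusted p = 0.0167). dot1l, a histone H3 methyltransferase gene, rose in T3 (1.12, adjusted p = 0.0446) and in st61 (1.06, adjusted p = 0.0499). Each dot1l call held in only 9 of 22 alternatives. ncoa4, which also directs ferritin to lysosomes, fell in st61 (-1.11, adjusted p = 0.0265), a call that held in 17 of 22 alternatives. ncoa2, a sister of ncoa3, was lower in st66 than in st54 (-0.51, adjusted p = 0.0411). The ncoa2 call held in only 8 of 22 alternatives and was lost with the gene-length correction.

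Sisters of the other coactivators showed no call between T3 and st54. crebbp, the sister of ep300, averaged 81.1 ± 4.56 CPM in T3 and 68.7 ± 29.5 CPM in st54 (-0.07 ± 0.26, adjusted p = 0.884), and ncoa1 42.0 ± 1.25 CPM in T3 and 41.1 ± 13.3 CPM in st54 (-0.27 ± 0.20, adjusted p = 0.356). prmt1, the main arginine methyltransferase of histone H4 and a relative of carm1, was at 134, 131 and 129 CPM in T3, against 34, 40.7 and 43.8 CPM in st61, and was called 2.62-fold higher (1.39 ± 0.32, adjusted p = 0.00766). Against st54 (74.6, 67.9 and 48.4 CPM) its difference of 0.75 ± 0.32 did not pass (adjusted p = 0.124). Its st66 libraries split like those of med1, at 149, 37.6 and 42.2 CPM.

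Mediator subunits other than med1 were mostly not called. Of 31, ccnc (0.67, adjusted p = 0.0236) and med31 (0.68, adjusted p = 0.0283) rose and med17 (-0.48, adjusted p = 0.0489) fell in T3 against st54, with a median of 0.01 over the list and -0.05 over all genes, of which 17.0% were called. That med17 call held in only 8 of 22 alternatives. In st61 against st54 med9 alone was called (-0.96, adjusted p = 0.0433), beside 18.9% of all genes. The med9 call held in 11 of 22 alternatives. Against st61, T3 livers had 3 higher (ccnc, med31 and med10) and 2 lower (med17 and med15), and against st66 3 higher and 5 lower, where 33.2% and 28.7% of all genes were called.

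Of 14 subunits of the SWI/SNF remodelling complex, 3 rose in T3 against st54: smarca4, which encodes its ATPase BRG1, at a low level (10.2, 9.42 and 7.99 CPM in T3, against 2.36, 1.53 and 3.04 CPM in st54; 1.71 ± 0.44, adjusted p = 0.0242), actl6a (1.01, adjusted p = 0.0353) and smarcd1 (0.76, adjusted p = 0.0307). Of all genes, 9.47% were called higher in that comparison. The list had a median of 0.25, beside -0.05 over all genes tested. arid1b, a DNA-binding subunit, was lower in st66 than in st54 (-0.69, adjusted p = 0.0275) and st61 (-1.24, adjusted p = 0.00241).

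Of the receptors these partners bind, thrb rose in T3 (4.47, adjusted p = 1.44e-05), in st61 (4.16, adjusted p = 5.76e-06) and in st66 (3.79, adjusted p = 1.43e-05) against st54. The gene thra, the receptor gene already active in the larva, was at 2.47, 1.26 and 1.29 CPM in st66, against 3.43, 3.85 and 5.77 CPM in st54, and fell there (-1.21, adjusted p = 0.0109). Per kilobase on column sums, thrb averaged 2.39 CPM in T3 and 0.0818 CPM in st54, while ncor1 averaged 15.1 and 10.3 CPM per kb. After TMM scaling the fitted ncor1 difference between T3 and st54 was 0.25 ± 0.22 and was not called (adjusted p = 0.444). Of 8 hormone response genes, 7 were called higher in T3 than in st54, beside 9.47% of all genes. That list was chosen with earlier results of these data known, so the count is a description and no test. klf9 (2.25, adjusted p = 0.00301) and thibz (5.89, adjusted p = 0.00242) were among the 7, and dio3 (-1.17) was not called.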

How the data were processed

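Liver RNA-seq of 12 libraries was used as the raw counts per gene that the authors deposited, with gene lengths in bases. The submitters' processing notes name cutadapt 3.4 and STAR 2.7.8a. Per the file headers, alignments had duplicates marked. The sources used here do not give the build, the annotation, the strand setting or the fate of duplicates. Lines of 2 genes, broken over 6 lines, were dropped. Of 26529 symbols, 26528 matched the UCB_Xtro_10.0 gene table.

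edgeR 4.0.16 (R 4.3.3, limma 3.58.1) fitted group means to all 12 libraries: filterByExpr, TMM, robust quasi-likelihood, 8 residual degrees of freedom. SE is the log2 fold change over the root of F, and 95% intervals use its t quantile. The fit was run on simulated counts that had the same spread in all groups, with genes changed in st61 only. That run cannot show how the fit behaves under the unequal spread of these groups. DESeq2 1.42.0, 3 other scalings, no filter, a replicate block, fits to the compared groups, T3 libraries summed and each library left out were alternatives. A length correction, st66 replicate 1 alone and TMM-scaled levels were added after seeing the data. p-values measure the spread between these libraries only.

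Members and lists were chosen with earlier results of these data known. Genes named outside the 6 are up to 4 called per list, direction and comparison by adjusted p, plus ncoa1, ncoa2, crebbp, prmt1, thra, thrb, klf9, thibz and dio3, and the 3 most similar per member; a few genes this rule names are not reported here.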

Additional observations from a re-analysis of the deposited data

How the results depend on the processing

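Every coregulator call kept its direction in all 22 alternatives, and 52 of 792 alternative values of the 6 genes changed sign, none of them called. The number of the 6 genes called went to 0 in st66 vs st54 on column sums, with only the 2 groups compared, with replicate 1 as the lone st66 library and with the T3 libraries summed, to 1 in st66 vs st61 with st66 replicate 1 alone, and to 1 in T3 vs st54 with only those groups or with st66 replicate 1 alone. In T3 vs st61 it went to 3 with only those groups, 2 by DESeq2, 2 with st66 replicate 1 alone and 0 with the T3 libraries summed, and in T3 vs st66 to 0 on column sums and with the T3 libraries summed. Leaving out 1 library gave 0 to 1 in st61 vs st54, 0 to 2 in st66 vs st54, 0 to 3 in st66 vs st61, 0 to 1 in T3 vs st54, 0 to 3 in T3 vs st61 and 1 to 3 in T3 vs st66. The highest counts came without st66 replicate 1, except in st61 vs st54, where it came without st54 replicate 3, and in T3 vs st54, where either gave it.

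Over all genes, summing the T3 libraries gave 1659 calls in st61 vs st54, 1068 in st66 vs st54, 488 in st66 vs st61, 62 in T3 vs st54, 619 in T3 vs st61 and 335 in T3 vs st66. Fitting only the 2 groups gave 567 in st66 vs st54, 351 in st66 vs st61, 4751 in T3 vs st54 and 9020 in T3 vs st61. st66 replicate 1 alone gave 4391 in st61 vs st54, 4937 in T3 vs st54 and 2145 in T3 vs st66. In st66 vs st61 column sums gave 908 and DESeq2 2540. Leaving out 1 library gave 1720 to 4431 in st61 vs st54, 1277 to 4232 in st66 vs st54, 586 to 4562 in st66 vs st61, 742 to 5084 in T3 vs st54, 3111 to 6992 in T3 vs st61 and 2290 to 7236 in T3 vs st66. On column sums the share of calls that were higher was 82.3% in T3 vs st54, 74% in T3 vs st61 and in T3 vs st66, and 45.5% in st66 vs st54, against 55.6%, 50%, 40.5% and 60% with TMM; upper-quartile factors gave 44.1% in T3 vs st54. The cause of these changes was not tested.

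No pairing of the samples by replicate number was seen: the correlation of deviations of same-numbered libraries ran from -0.11 to 0.16, above 0.1 in 1 of 18 pairs. Between st54 replicate 1 and st61 replicate 2, which differ in number, it was 0.22. Such weak correlations cannot exclude a pairing. With the replicate block, the same coregulators were called, and calls over all genes were 1794 in T3 vs st54, 4559 in T3 vs st61, 3797 in T3 vs st66, 2516 in st61 vs st54, 1666 in st66 vs st54 and 1113 in st66 vs st61. Among named genes outside the 6, 177 of 792 alternative values lost a call and 3 gained one. With 3 libraries a group, 1 library decides many of these calls.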
